A study of Mus musculus with 7 samples.

Results

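Expression of noggin and of 8 other genes of bone morphogenetic protein (BMP) signalling was described in mouse epicardial explants with and without lamin B1. The 9 genes were picked by name out of 22738 gene rows in each library's count table. They comprise 4 extracellular antagonists (Nog, Grem1, Chrd and Fst), 3 ligands (Bmp2, Bmp4 and Bmp7) and 2 direct target genes (Id1 and Smad6). The set was put together with the wild type against Lmnb1-/- comparison already known, in which Nog was among the genes that passed the test. The members' difference between genotypes is therefore given as a description and not as a test.

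The explants came from ventricles of E12.5 hearts, laid on gelatin for 48 hours and left to grow for 72 hours more after the hearts were taken off. The 4 wild type and 3 Lmnb1-/- libraries, the latter called null here, shared a mixed background of C57BL/6, 129S4Sv/Jae and 129S6/SvEvTac, and no treatment was given. The labels do not say how the Lmnb1 allele was made, nor whether replicates came from separate embryos, so the spread between libraries may be technical in part. The series addresses the part that lamin B1, a protein of the nuclear lamina, has in when epicardial cells migrate.

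BMPs are secreted ligands that bind paired type I and type II receptor kinases, which phosphorylate Smad1, Smad5 and Smad9. These enter the nucleus with Smad4 and switch on targets such as the Id genes and the inhibitory Smads, which dampen the pathway in turn. Noggin, chordin and gremlin 1 bind BMP ligands outside the cell and keep them from their receptors. Follistatin, the product of Fst, binds activins most tightly and some BMPs as well. In the embryonic heart BMP signals act in the forming epicardium and in the transition of its cells to migratory mesenchyme.

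Total counts per library ran from 1024898 to 3066936, with wild type replicate 2 the shallowest. The wild type libraries had 463, 185, 488 and 567 counts of Lmnb1 itself against 4, 2 and 4 in the null libraries, which matches the labels. All 12 epicardial markers looked for passed the count filter, among them Wt1, Tbx18, Tcf21 and Aldh1a2, and their summed level ranged from 2123 to 2858 CPM (counts per 1000000 of the scaled library total) in wild type against 1746 to 2088 CPM in the null libraries. Of these 12 genes 0 passed the test between genotypes, with 9 below 0. Cardiomyocyte markers summed to 546 to 873 CPM and 538 to 697 CPM in the same order. Myl7, Tnnt2, Tnni1 and Actc1 averaged 412, 120, 87.9 and 38.9 CPM in wild type. In null explants they averaged 385, 119, 105 and 30.4 CPM. Of the same list, Myh6, Myh7, Nppa and Nkx2-5 had at most 3 counts in any library, and Myh7 had 0 throughout. Ryr2 had at most 6 counts. By Xist and Y-linked counts, wild type replicates 1 and 3 were female and the other 5 libraries male.

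Smad6 holds the letters of a Smad-binding palindrome across its transcription start, and its sequence is shown because Smad6 serves here as a readout of the pathway. The Bmp4 window is shown beside it as that of the main ligand of the set. RefSeq promoter windows in build GRCm38.p6 were held for 4 of the 9 members, Smad6, Bmp4, Grem1 and Chrd. Each was searched from 250 bases before the start to 10 after it, and capitals mark the Smad palindrome GTCTAGAC, which reads the same on both strands. The Smad6 window is chr9:64022050-64022309 on the minus strand and the Bmp4 window chr14:46390660-46390919 on the minus strand.
Smad6: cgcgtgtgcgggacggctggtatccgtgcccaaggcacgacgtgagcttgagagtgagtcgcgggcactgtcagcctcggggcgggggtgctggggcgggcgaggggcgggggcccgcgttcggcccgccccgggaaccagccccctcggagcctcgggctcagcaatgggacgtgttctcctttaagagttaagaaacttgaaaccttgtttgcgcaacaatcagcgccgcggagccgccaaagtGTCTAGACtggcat
Bmp4: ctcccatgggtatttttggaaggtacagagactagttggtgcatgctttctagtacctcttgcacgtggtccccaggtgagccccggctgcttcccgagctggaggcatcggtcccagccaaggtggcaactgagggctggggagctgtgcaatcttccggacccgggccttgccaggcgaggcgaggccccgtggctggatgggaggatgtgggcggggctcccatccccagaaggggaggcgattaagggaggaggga
In Smad6 the palindrome spans positions -4 to 4, with no position 0. It was found in 58 of 32851 windows of the same length (0.177%), and in none of the other 3 member windows. The GC-rich motif GGCGCC, likewise the same on both strands and described as a Smad1 and Smad5 binding sequence, was found once in the Grem1 and once in the Chrd window, and in 9.96% of all windows. A match describes the letters only.

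Noggin transcripts were about 3 times as abundant in null explants as in wild type. The 4 wild type libraries, in replicate order, held 14, 7, 12 and 17 Nog counts, and the 3 null libraries held 56, 32 and 38. On the CPM scale the wild type libraries were at 6.09, 7.23, 4.52 and 7.17 and the null libraries at 18.0, 17.9 and 19.5. Every null library lay above every wild type library, with no value between 7.23 and 17.9 CPM. The means were 6.25 ± 1.27 CPM (SD, n = 4) and 18.5 ± 0.894 CPM (SD, n = 3). The log2 fold change was 1.59 with a standard error (SE) of 0.26 and a 95% interval of 1.04 to 2.14. Nog reached the count filter in 3 of the 4 wild type libraries as well as in all 3 null libraries, so it did not pass only through the group where it was high.

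Across all 10775 genes tested with edgeR's quasi-likelihood test, Nog had a Benjamini-Hochberg adjusted p of 0.0193, the value that brought it into view. Of the 5 members tested 1, Nog, had an adjusted p under 0.05, where 0.705% of all tested genes had one, 0.362% in the higher direction. Nog was likewise the 1 tested member whose ranges were apart, where they were apart in 13.3% of all tested genes, 6.36% higher and 6.92% lower. Since the contrast was used to choose the members, nothing is read from these counts. The adjusted p rose to 0.102 when sex was added to the model and to 0.0633 within male libraries, and the call was also lost on leaving out wild type replicate 3 (0.0873) or null replicate 1, 2 or 3 (0.113, 0.112 and 0.0727), while the log2 fold change stayed between 1.35 and 1.70 under all 17 alternatives that gave an adjusted p. In the male libraries alone Nog averaged 7.20 CPM in 2 wild type and 18.5 CPM in 3 null libraries.

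**Figure D1:**
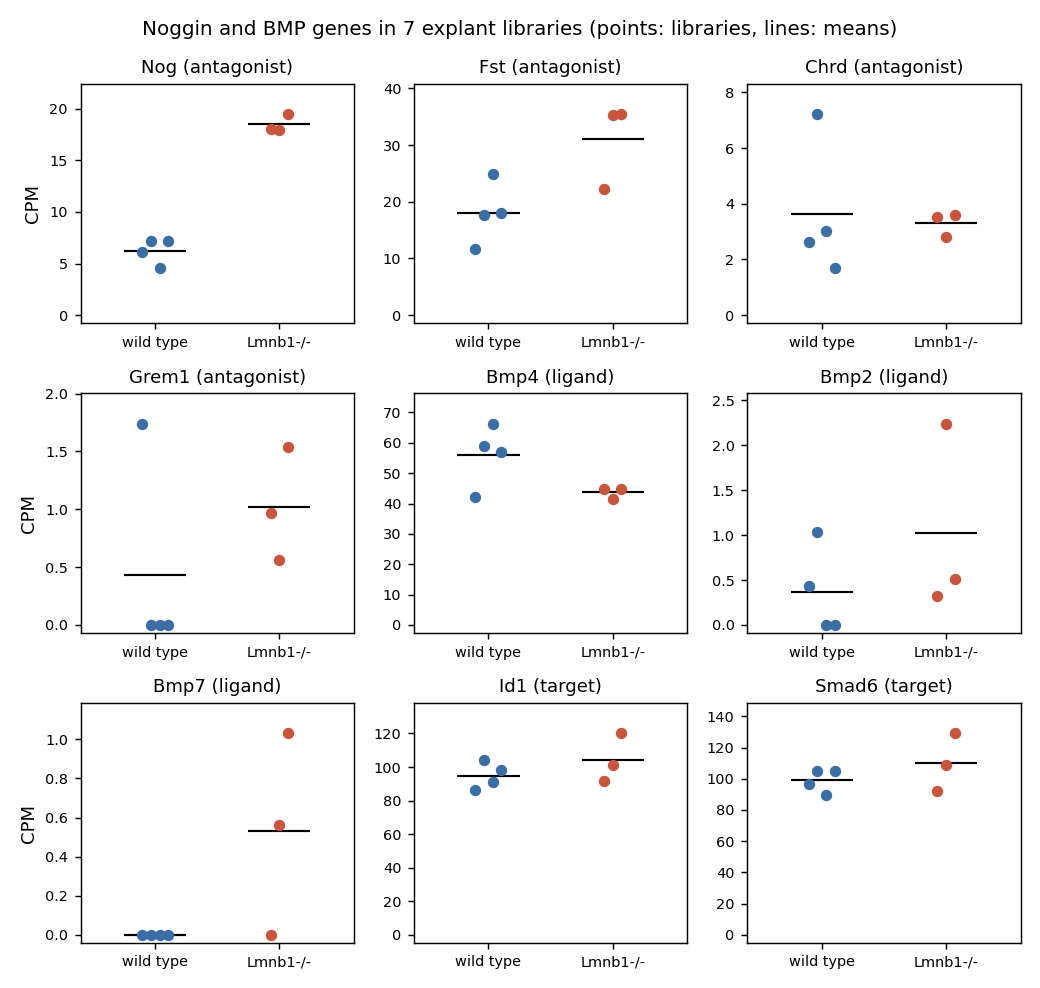
CPM of the 9 members (vertical axes, linear) in 4 wild type and 3 null libraries, each point a library and each line a group mean. Nog is the member whose groups lie apart, at 4.52 to 7.23 CPM against 17.9 to 19.5 CPM.

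Follistatin averaged 18.1 ± 5.36 CPM in the wild type (SD, n = 4) against 31.0 ± 7.63 CPM in the null explants (SD, n = 3), with overlap. By replicate, Fst stood at 11.7, 17.6, 24.9 and 18.1 CPM among the wild type libraries and at 22.2, 35.3 and 35.5 CPM among the null ones. Null replicates 2 and 3 were above all wild type libraries, but replicate 1 was below wild type replicate 3, so the groups overlapped. The log2 fold change was 0.74 (SE 0.26). Chordin, encoded by Chrd, was near the detection limit in both groups, with 6, 7, 8 and 4 counts among the wild type libraries and 11, 5 and 7 among the null ones. Gremlin 1, encoded by Grem1, had 4 counts in wild type replicate 1, 0 in the other 3 wild type libraries and 3, 1 and 3 in the null libraries. A total of 3 counts makes 0.978 to 2.93 CPM in these libraries, so no direction can be read for Grem1. Neither Chrd nor Grem1 passed the count filter.

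Bmp4 supplied nearly all ligand counts of the set. By replicate it stood at 42.2, 58.9, 66.3 and 56.9 CPM among the wild type libraries and at 44.7, 41.5 and 44.7 CPM among the null ones. Wild type replicate 1 fell among the null values and the other 3 wild type libraries lay above them, so the groups overlapped. The means were 56.1 ± 10.1 CPM (SD, n = 4) and 43.6 ± 1.85 CPM (SD, n = 3), which is -0.36 on the log2 scale (SE 0.17). Bmp2, a ligand of the same subfamily as Bmp4, had 1, 1, 0 and 0 counts in wild type against 1, 4 and 1 in the null libraries. Bmp7, which encodes a ligand of another BMP subfamily, had 0 counts in all 4 wild type libraries, where the limit that a count of 0 allows is 1.1 to 2.93 CPM, and 0, 1 and 2 in null libraries. Bmp2 and Bmp7 were not detectable as different at this depth.

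The direct targets Id1 and Smad6 overlapped between genotypes. Id1, which encodes an inhibitor of basic helix-loop-helix transcription factors, was at 86.1, 104, 90.8 and 98.3 CPM among the wild type libraries and 91.6, 101 and 120 CPM among the null ones. Smad6, the inhibitory Smad whose start site is printed above, had 96.6, 105, 89.6 and 105 CPM among the wild type libraries against 92.0, 109 and 129 CPM among the null ones. For each gene null replicate 3 was the highest of the 7 libraries and null replicate 1 fell inside the wild type range. The log2 fold change of Id1 was 0.14 with a 95% interval of -0.13 to 0.41, and that of Smad6 was 0.15 with an interval of -0.14 to 0.43. Within the male libraries Id1 averaged 101 CPM in wild type against 104 CPM in null, and Smad6 105 against 110 CPM.

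Per length of transcript, the targets stood highest and the antagonists low. Levels between genes are compared here as CPM per kilobase of exon, with lengths from GENCODE M21, and as means over the 4 wild type libraries. Id1 was at 81.8 ± 6.95, Smad6 at 31.0 ± 2.39 and Bmp4 at 24.9 ± 4.49 CPM per kilobase (SD, n = 4). Smad6 and Bmp4 overlapped in wild type, though Smad6 was the higher in 6 of 7 libraries. Fst at 3.94 ± 1.17 and Nog at 3.69 ± 0.749 CPM per kilobase (SD, n = 4) did not differ beyond their spread in wild type, and both lay below Bmp4 in every library. Chrd followed at 0.581 ± 0.393 CPM per kilobase (SD, n = 4), and Grem1, Bmp2 and Bmp7 could not be ordered.

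Per kilobase of exon, Nog was above Fst in every null library. Nog was at 10.9 ± 0.528 and Fst at 6.75 ± 1.66 CPM per kilobase (SD, n = 3). Over all 7 libraries Fst was above Nog per kilobase in 1, wild type replicate 3. This order rests on exon lengths of 1695 bases for Nog and 4589 for Fst, which merge all annotated transcripts. Which transcripts were expressed was not tested. In CPM, Fst was above Nog in every null library, at 22.2 to 35.5 against 17.9 to 19.5. Bmp4 stayed above Nog in every library, at 19.4 ± 0.821 CPM per kilobase in null explants (SD, n = 3).

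**Figure D2:**
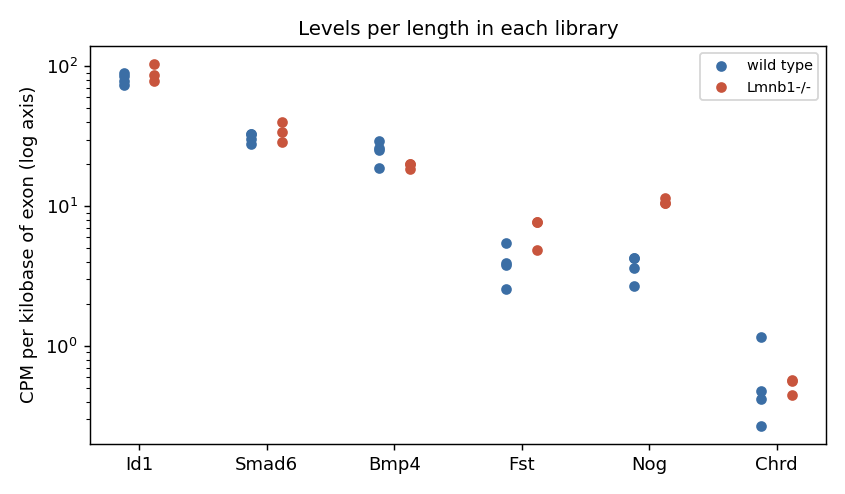
CPM per kilobase of exon on a log axis for the 6 members with counts in every library, each point a library. Bmp4 stays above Nog and Fst in both genotypes, and Nog moves from 2.67 to 4.27 in wild type to 10.6 to 11.5 in null libraries.

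Within the set, the 4 antagonists made up a larger part of the antagonist and ligand counts in null explants. With other listed modulators added the difference was not seen, at shares in which Nog counts weigh little. Summed over Nog, Grem1, Chrd and Fst, they gave 34.2, 34.8, 32.8 and 32.2% of the counts of the 7 antagonist and ligand genes by replicate in the wild type. In the 3 null libraries they gave 49.8, 56.1 and 56.5%. The means were 33.5% ± 1.23 (SD, n = 4) and 54.2% ± 3.76 (SD, n = 3). Exact (Clopper-Pearson) 95% intervals, which cover counting error only, reached up to 45.7% in wild type replicate 2 and down to 43.8% in null replicate 1, so those 2 libraries overlap within counting error although the shares themselves do not.

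Relative to Bmp4 alone, both Nog and Fst counts were higher in null libraries. There were 14.4, 12.3, 6.82 and 12.6 Nog counts per 100 Bmp4 counts by replicate among the wild type libraries and 40.3, 43.2 and 43.7 among the null ones. For Fst there were 27.8, 29.8, 37.5 and 31.9 counts per 100 Bmp4 counts in wild type and 49.6, 85.1 and 79.3 in null libraries. Ranges were apart for each of the 2 ratios. These shares use counts, in which longer transcripts weigh more, so only their change between libraries is read. They were computed from members chosen with the contrast known and carry no test. Among the antagonists Fst held the most counts in every library. Nog made up 14.0 to 27.5% of antagonist counts by library in wild type and 31.7 to 40.3% in null explants. The activin subunit genes Inhba and Inhbb were counted in none of the ligand sums.

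**Figure D3:**
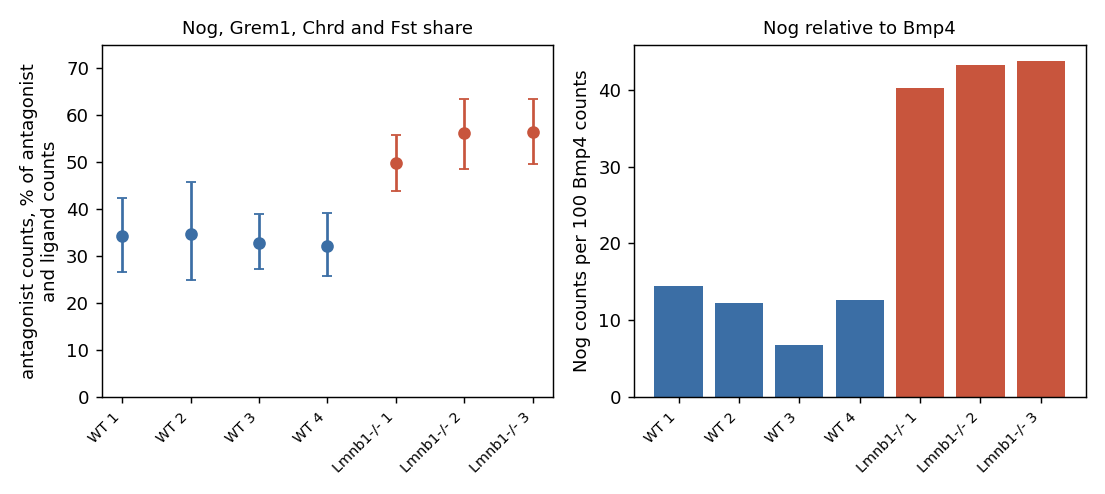
Left, antagonist counts as a percent of antagonist and ligand counts in each library, with exact 95% intervals for counting error. Right, Nog counts per 100 Bmp4 counts. Wild type libraries sit at 32.2 to 34.8% and 6.82 to 14.4, null libraries at 49.8 to 56.5% and 40.3 to 43.7.

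The size and direction of this share depend on which genes are counted. On the ligand side, another BMP family ligand outside the set had more counts than Bmp4. Gdf6, which encodes growth and differentiation factor 6, a BMP family ligand, was at 426 ± 63.5 CPM (SD, n = 4) over 3532 exon bases in wild type, beside 56.1 CPM over 2248 exon bases for Bmp4. In null explants Gdf6 stood at 408 ± 12.7 CPM (SD, n = 3), which is -0.06 on the log2 scale (SE 0.12) at an adjusted p of 0.866 by edgeR. It was named after its values were seen. With 16 other BMP and GDF ligands added to the ligand side, a choice also made after seeing the data, antagonists made up 5.27% ± 0.599 in wild type (SD, n = 4) and 9.95% ± 1.30 in null explants (SD, n = 3). The direction was the same and the libraries of the groups did not overlap. With the 22 other listed antagonists and extracellular modulators added to the antagonists as well, also after seeing the data, their share was 92.1% ± 0.622 in wild type (SD, n = 4) against 91.5% ± 0.585 in null explants (SD, n = 3), and the groups overlapped. With those modulators but only the 3 member ligands it was 99.0 to 99.1% by library in wild type against 99.1 to 99.2% in null explants. Fstl1, which encodes a secreted follistatin-like protein, held most of the added counts. In wild type it averaged 4679 CPM beside 6.25 CPM for Nog, so the shares with modulators could hardly register the Nog difference. The added list also places protease genes on the antagonist side, namely Bmp1, Tll1, Tll2, Furin and Pcsk6. Of these, Tll1 encodes a protease that cleaves chordin. Bmp1, Tll1, Furin and Pcsk6 averaged 222, 117, 62.1 and 50.6 CPM in wild type. Bmp3, which opposes other BMPs, was counted among the added ligands.

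Outside the 9 members, no BMP pathway gene passed the test in either direction. A list of 79 further genes held 46 that could be tested, and 0 rose and 0 fell with edgeR's quasi-likelihood test across all genes, with 2 at an unadjusted p under 0.05. Over all tested genes 0.705% were called and 13.6% had such an unadjusted p, so 0 calls among 46 is near the background. DESeq2 and limma voom also called 0 of them. DESeq2 gave 2301 genes no adjusted p, however, and any of the pathway genes among those could not be called by it. Their median log2 fold change was 0.02, beside -0.02 for all tested genes, with 24 above and 22 below 0.

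Among the other ligands 0 of 6 tested genes passed, with 3 above and 3 below 0 and a median of 0.10. Inhbb, which encodes an activin subunit, had a log2 fold change of 0.26 with a 95% interval of -0.16 to 0.68. Bmp3, which encodes an atypical ligand that opposes other BMPs, had 2, 3, 12 and 13 counts by replicate in wild type against 12, 11 and 14 in null libraries.

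Among the other antagonists and extracellular modulators 0 of 12 passed, with 3 above and 9 below 0 and a median of -0.20. Fstl3, a follistatin relative, was at -0.39 (SE 0.20, adjusted p = 0.415 by edgeR). A further 4 modulators were picked for naming after their values were seen. Fstl1 averaged 4679 ± 640 CPM in wild type (SD, n = 4) against 4091 ± 438 CPM in null explants (SD, n = 3). Twsg1, which binds chordin and BMPs, averaged 164 ± 13.2 CPM in wild type (SD, n = 4) against 144 ± 4.79 CPM in null explants (SD, n = 3). Bmper, which encodes a BMP-binding protein with chordin-like repeats, averaged 119 ± 26.0 against 125 ± 15.1 CPM, and Crim1, a membrane protein gene with similar repeats, 448 ± 79.0 against 390 ± 18.6 CPM. Their adjusted p-values by edgeR were 0.529, 0.474, 0.896 and 0.534, in this order.

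No receptor or signal transducer passed the test. Of 10 tested receptors and co-receptors 6 were above and 4 below 0, with a median of 0.06 and Bmpr1a, the main type I BMP receptor, at 350 ± 42.6 CPM in wild type (SD, n = 4) against 315 ± 17.2 CPM in null explants (SD, n = 3). Its log2 fold change was -0.16 with a 95% interval of -0.40 to 0.08. The type I receptor gene Bmpr1b was low, at 5.37 ± 2.03 and 7.72 ± 1.91 CPM (SD, n = 4 and 3). Of 12 transducers and intracellular regulators 9 were above and 3 below 0, with a median of 0.13. Smad9, a receptor-activated Smad, had ranges that were apart, from 9.13 to 12.7 CPM in wild type against 13.4 to 15.1 CPM in null libraries, at an adjusted p of 0.454 by edgeR. It was the 1 gene of the 46 with ranges apart, where 13.3% of all tested genes had ranges apart, 6.36% of them higher in null. Nothing is read from this separation. Ski, which encodes a repressor of Smad activity, was at -0.32 (SE 0.14, adjusted p = 0.344 by edgeR). Lemd3, which encodes the inner nuclear membrane protein MAN1 that binds receptor-activated Smads, averaged 50.6 ± 6.23 CPM in wild type (SD, n = 4) against 56.1 ± 4.36 CPM in null explants (SD, n = 3). Smad1 and Smad5, which carry the BMP signal, had 95% intervals of -0.07 to 0.70 and -0.23 to 0.22 on the log2 scale. The common partner Smad4 had an interval of -0.12 to 0.35, and the inhibitory Smad7 one of -0.20 to 0.25. Lemd3 and these 4 Smads were named after their values were seen.

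The other target genes gave no call either, 0 of 6 tested, with 3 above and 3 below 0 and a median of -0.04. Tbx20, a cardiac T-box factor gene, averaged 166 ± 25.0 CPM in wild type (SD, n = 4) against 194 ± 14.4 CPM in null explants (SD, n = 3), with a log2 fold change of 0.23 and a 95% interval of -0.04 to 0.51. Id3, the close relative of Id1, averaged 190 ± 19.3 CPM (SD, n = 4) against 168 ± 5.91 CPM (SD, n = 3), with a log2 fold change of -0.18 and an interval of -0.42 to 0.05. Both intervals contain 0, as do those of Id1 and Smad6.

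**Figure D4:**
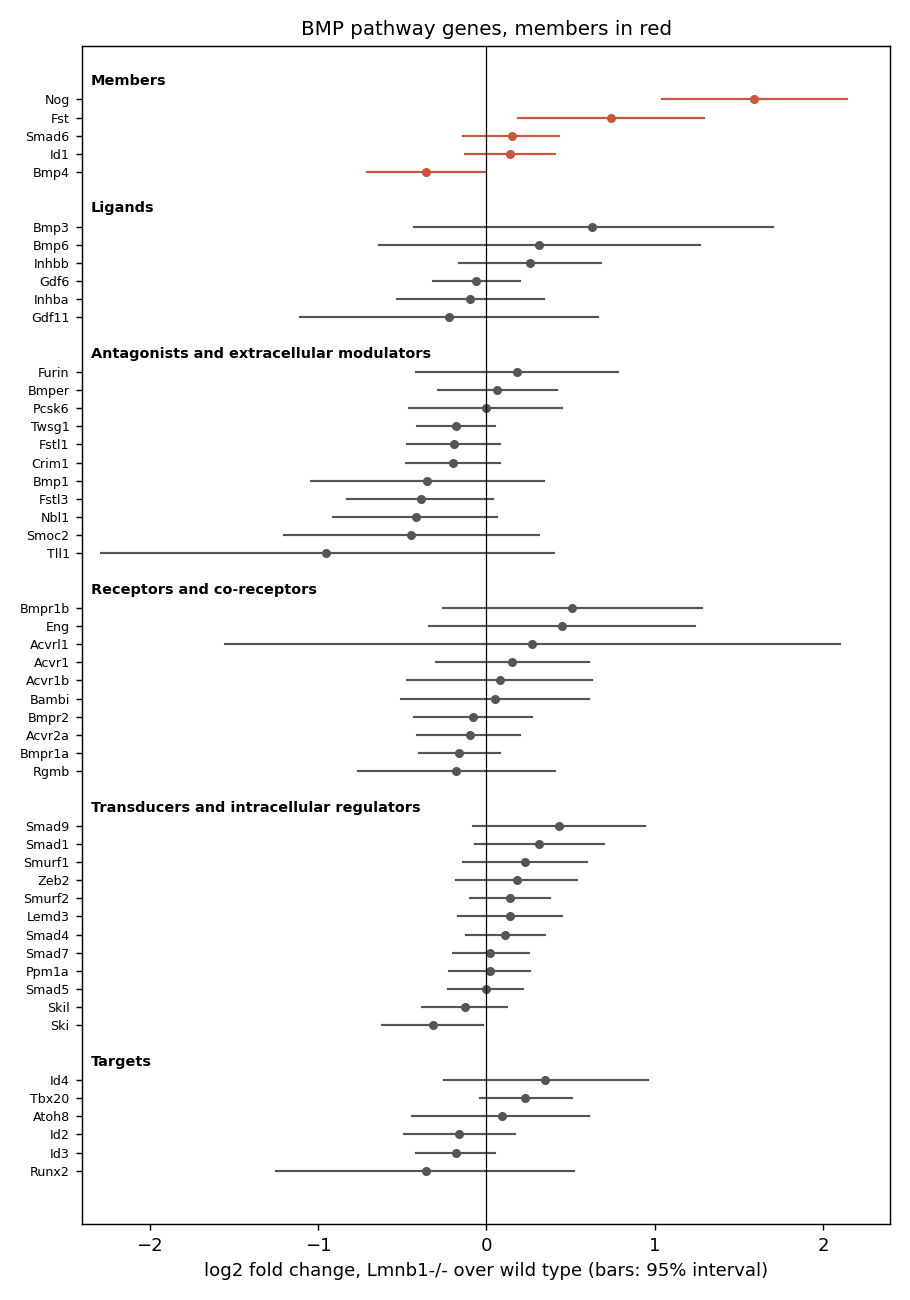
Log2 fold change of null over wild type (horizontal axis) with 95% intervals for the 5 tested members and other tested pathway genes, grouped by role. Of the genes drawn Nog, at 1.59, lies farthest from 0, and its interval starts at 1.04.

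No gene beside the members in the genome passed the test. The 2 nearest tested genes on each side of each member, 36 in all by gene order in RefSeq's GRCm38.p6 table, gave 0 calls, with 9 at an unadjusted p under 0.05 and a median log2 fold change of 0.06. Beside 0.705% called over all tested genes, 0 of 36 is near the background, and 13.6% of all tested genes had an unadjusted p under 0.05. DESeq2 called 1 of them, Itga1, and limma voom 0. Around Nog, the log2 fold change was 0.43 for Trim25 (SE 0.35), 0.18 for Dgke (SE 0.24), 0.28 for Pctp (SE 0.33) and 0.23 for Mmd (SE 0.15), and by edgeR their adjusted p-values ran from 0.510 to 0.780. That their changes differ from that of Nog was not tested.

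The genes whose pattern was most like that of Nog over the 7 libraries were Stim1, Plekha3, Kpna4, Mbd2 and Rgs12. Pearson r of log2 CPM was 0.99 for Stim1, the calcium sensor of the endoplasmic reticulum, 0.98 for Plekha3, Kpna4 and Mbd2, and 0.97 for Rgs12, with n = 7, the highest among 10774 other genes, and Spearman rho was at least 0.89. These values contain the group difference that the 7 libraries share. With each group's mean removed, r was 0.90 for Stim1 and 0.60 to 0.82 for the other 4, which the choice of these genes by the highest r over the same libraries also raises. Stim1 was at 55.2, 66.1, 52.0 and 61.1 CPM by replicate in wild type against 97.1, 94.2 and 103 CPM in null libraries, so the groups did not overlap. Choice by likeness to Nog, whose groups lay apart, favours such a separation, so nothing is read from it. Over all tested genes 6.36% had ranges that were apart and higher in null.

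Levels of cell type markers moved in part with genotype. The epicardial sums were apart, at 2123 to 2858 CPM in wild type against 1746 to 2088 CPM in null libraries, though 0 of those 12 genes passed. The part of this in the Nog difference was not tested. Smooth muscle and mural markers summed to 10801 to 12046 CPM in wild type against 8071 to 8811 CPM in null libraries, and 4 of the 9 tested among 10 fell (Acta2, Des, Pdgfrb and Cspg4), with 9 of 9 below 0. Over all tested genes 0.343% fell, and 5647 of 10775 were below 0. In bulk RNA, fewer cells of a type and less RNA per cell cannot be told apart, and the part of this shift in the Nog difference was not tested. Macrophage markers summed to 63.0 to 282 CPM in wild type against 40.5 to 487 CPM in null libraries, and their part in the Nog difference was not tested. Fibroblast markers summed to 3136 to 8092 CPM in wild type against 2988 to 3687 CPM in null libraries. Col1a1 stood at 5024 CPM in wild type replicate 2 and at 806 to 1241 CPM in the other wild type libraries. In null libraries it was at 712 to 799 CPM (edgeR's adjusted p = 0.499). Postn was lower in every null library, at 19.1 to 47.3 against 76.6 to 225 CPM (edgeR's adjusted p = 0.221). Of 6 tested fibroblast markers 0 passed, with 4 below 0 and Pdgfra and Dcn above 0. Endothelial markers summed to 24.4 to 50.2 and 32.4 to 42.1 CPM, with Tie1 at 0 in all wild type libraries. Kdr was higher in every null library, at 7.71 to 10.7 against 1.88 to 5.22 CPM (edgeR's adjusted p = 0.122), and Tek was below 0. Ranges were apart in 6.36% of all tested genes with null higher and in 6.92% with null lower. Nothing is read from those of Col1a1, Postn and Kdr. The deposited tables carry library numbers whose meaning is not stated, and within groups of neighbouring numbers Nog was 1.43 higher on the log2 scale in null replicate 1 than in wild type replicate 1. It was 1.28 higher in null replicates 2 and 3 than in wild type replicate 4. Wild type replicates 2 and 3 had no null library beside them.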

How the data were processed

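RNA was taken from epicardial explants with a PicoPure kit and made into libraries with the Illumina TruSeq RNA v2 kit, which does not mark strand, per the labels' protocols. Per the submitters' processing notes, TopHat and edgeR were used with build mm9. For the counting program and its annotation, the sources used here name nothing. Each library's deposited table held whole-number counts in 2 unnamed columns. The first was used. The second held 16.6 to 19.6% of counts, is read from its values as reads matching several places, and was 0 for all 9 members in all libraries.

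Genes were filtered with filterByExpr (10775 left), scaled by TMM and compared with the quasi-likelihood test of edgeR, with p-values adjusted by Benjamini and Hochberg's method at 0.05. R 4.3.3, DESeq2 1.42.0, edgeR 4.0.16 and limma 3.58.1 were used. SE is the size of the log2 fold change over the root of the F statistic. CPM uses TMM-adjusted totals, and log2 CPM a prior count of 2. The procedure was tested on simulated counts. Members and lists were chosen with earlier results of these data known. Named genes are the 9 members, Lmnb1, the 2 of smallest p in each pathway role, the neighbours of Nog and the 5 genes most like Nog. Others are said to be named after their values were seen, apart from cell type markers. The values of 1 pathway gene that this rule names are not reported here. Alternatives were RLE factors, library totals, other count filters, DESeq2, limma voom, blocks, sex, both count columns and leaving out each library. Replicates differed beyond counting noise in all pairs (chi-square per degree of freedom 2.22 to 7.71).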

Additional observations from a re-analysis of the deposited data

Results flagged for a closer look

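Grem1 in wild type replicate 1, at 1.74 CPM or 4 counts, stood apart from the other 3 wild type libraries, which had 0 counts. It was the only outlying library among 37 sets of 4 wild type values looked at. The rule sets the gap to the nearest value against the full range. With 0 counts in the other 3 libraries it flags any count above 0, so no rate by chance is given. The null libraries held 3, 1 and 3 Grem1 counts.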

How the results depend on the processing

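The number of genes called over all genes, 76, was 180 without a count filter, 175 with DESeq2, 38 with sex added to the model and 44 with both count columns summed, and 3 to 279 on leaving out 1 library. It was 279, 40, 4 and 28 without wild type replicates 1 to 4, and 4, 3 and 13 without null replicates 1 to 3. Scaling by library totals gave 73 calls, split 47 higher and 26 lower against 39 and 37. Of the members, 1 passed, and 0 did with sex in the model or among males, and 0 to 1 on leaving out 1 library. DESeq2 gave Nog an SE of 0.38 and an unadjusted p of 2.28e-05 but no adjusted p, so the count of members is not given for it. Fst, Bmp4, Id1 and Smad6 kept their direction under all 18 alternatives and passed under none, with adjusted p-values no lower than 0.0740. The pathway genes outside the set gave 0 calls under every alternative run, though DESeq2 could not call the 2301 genes to which it gave no adjusted p. Among the neighbours, 0 became 1 (Itga1) with DESeq2, with library number groups as a block and without wild type replicate 1 (0 to 1 over the libraries left out). The antagonist share was 20.6 percentage points higher in null explants, 19.5 to 22.8 on leaving out 1 library, and 4.68 with the other BMP and GDF ligands added. It was 0.0688 points higher with the other listed antagonists and modulators added. With these and the ligands added it was -0.676, so the sign was reversed, but the groups overlapped. Nog counts weigh little in both of these shares. Leaving out 1 library moved the log2 fold change of Dgke from -0.01 (without null replicate 1) to 0.36, and that of Pctp from -0.03 (without null replicate 3) to 0.53. The causes of these shifts were not tested. Replicate numbers were not shown to pair the libraries, as deviations of same-numbered libraries correlated at 0.26, -0.16 and -0.09. So few pairs cannot decide whether libraries were paired. Over all pairs of a wild type and a null library, wild type replicate 4 and null replicate 3 correlated highest, at 0.33. Replicate 1 of each group came next, at 0.26. Both pairs have adjacent library numbers, 15 and 16, and 3 and 4, and what they share was not tested. With library number groups as a block, Nog had a log2 fold change of 1.46 and edgeR's adjusted p of 0.0418. With a replicate block 77 genes passed over all, and Nog had a log2 fold change of 1.69 and an adjusted p of 0.0362. Depth limits Grem1, Chrd, Bmp2 and Bmp7, which had at most 11 counts in any library.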

Other observations

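A pair of extracellular modulators outside the tested genes had most of their counts in 1 library. Sost, which encodes sclerostin, had 3, 0, 28 and 6 counts in wild type replicates 1 to 4 and 0 in all 3 null libraries. Smoc1 had 5, 1, 16 and 1 counts in wild type and 1, 0 and 1 in null libraries. Tll1, a protease that cleaves chordin, had 240 CPM in the same wild type replicate 3 and 66.1 to 85.7 CPM in the other 3 wild type libraries, beside 52.4 to 72.7 CPM in null libraries, and did not pass (edgeR's adjusted p = 0.514). These genes were picked after their values were seen.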
